A study of Mus musculus with 4 samples.

Results

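The collagen and laminin genes were followed through an H3K27me3 profile of alveolar macrophages, the resident phagocytes of the lung airspaces. They were chosen by symbol, as every gene named Col followed by a type and a chain number, or Lama, Lamb or Lamc followed by a number, among the 27095 gene windows counted. The rule found 55 genes, 44 collagens and 11 laminins, and used no measured value. H3K27me3 was measured by Cut&Tag, in which an antibody guides a transposase to cut and tag the chromatin that carries the mark. Both groups were C57BL/6 chimeras: lethally irradiated Ly5.1 hosts received marrow that was 90% Suz12 cKO Ly5.2 (the cKO group) or 90% wild-type Ly5.2 (the WT group), and 10% wild-type Ly5.1 marrow in both. Each genotype had 2 biological replicates, and each library came from 100000 sorted alveolar macrophages and 0.5 µg of anti-H3K27me3. The sources used here do not give the Cre driver, the age of the mice, or whether Ly5.1 cells of donor or host origin were sorted out. A share of Suz12-competent cells in the cKO libraries therefore cannot be told apart from mark kept in Suz12-deleted cells, and H3K27me3 counts do not check the deletion of Suz12.

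Collagens are triple-helical chains of the extracellular matrix: fibrillar collagens form tissue fibres, type IV collagens form the sheet of the basement membrane, and others link, anchor or span membranes. Laminins are cross-shaped trimers of an alpha, a beta and a gamma chain that lay down the basement membrane on which epithelium and endothelium sit. Fibroblasts, epithelium and endothelium make most of these chains in lung. H3K27me3 is a repressive mark set by Polycomb repressive complex 2 (PRC2), of which Suz12 is a core subunit, and in mammals it commonly gathers at CpG-dense promoters of genes that the cell does not use.

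Promoter sequence was available for 40 of the 55 genes, as RefSeq windows (GRCm38.p6) of 300 bp from 250 bp upstream to 50 bp downstream of a start site, and 5 are shown because the results below turn on them. Col4a1 (chr8:11312777-11313076, minus strand) and Col4a2 (chr8:11312555-11312854, plus strand) encode the main type IV chains and are read from opposite strands, with start sites 21 bp apart. Their annotated 5' ends overlap, each start site lying inside the other gene. The last 78 bp of each window are therefore the same stretch, read on opposite strands. Col8a2 (chr4:126286544-126286843, plus strand) had the highest H3K27me3 per kb among the genes with a promoter sequence. Col17a1 (chr19:47691993-47692292, minus strand) is the only gene called between genotypes whose promoter sequence was at hand. Col3a1 (chr1:45311288-45311587, plus strand) had the lowest WT level of all tested members. Capitals mark CpG dinucleotides.
Col4a1: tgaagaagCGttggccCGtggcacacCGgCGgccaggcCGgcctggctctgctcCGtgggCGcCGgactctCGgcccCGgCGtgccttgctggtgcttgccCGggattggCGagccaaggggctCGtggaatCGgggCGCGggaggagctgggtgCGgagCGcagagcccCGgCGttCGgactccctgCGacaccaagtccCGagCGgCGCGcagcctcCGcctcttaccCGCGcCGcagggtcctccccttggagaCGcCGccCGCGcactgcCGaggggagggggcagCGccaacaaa
Col4a2: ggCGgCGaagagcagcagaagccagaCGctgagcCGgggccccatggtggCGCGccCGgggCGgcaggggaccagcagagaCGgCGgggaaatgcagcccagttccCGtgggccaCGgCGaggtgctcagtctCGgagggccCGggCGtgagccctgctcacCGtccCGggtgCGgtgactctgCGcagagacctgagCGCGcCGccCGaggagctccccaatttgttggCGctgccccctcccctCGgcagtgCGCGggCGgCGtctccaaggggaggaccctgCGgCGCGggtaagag
Col8a2: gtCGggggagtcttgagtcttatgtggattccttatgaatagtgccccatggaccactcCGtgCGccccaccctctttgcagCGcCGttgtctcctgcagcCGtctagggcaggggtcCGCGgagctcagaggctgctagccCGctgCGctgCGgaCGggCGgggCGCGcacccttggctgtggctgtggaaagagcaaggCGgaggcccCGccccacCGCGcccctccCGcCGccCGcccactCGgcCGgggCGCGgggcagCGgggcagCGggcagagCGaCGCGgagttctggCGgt
Col17a1: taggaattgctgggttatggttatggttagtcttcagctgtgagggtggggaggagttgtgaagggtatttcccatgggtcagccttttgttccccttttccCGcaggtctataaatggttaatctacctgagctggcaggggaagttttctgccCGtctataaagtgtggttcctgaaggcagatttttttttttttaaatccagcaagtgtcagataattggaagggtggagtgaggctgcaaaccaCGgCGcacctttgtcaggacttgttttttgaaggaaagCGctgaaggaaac
Col3a1: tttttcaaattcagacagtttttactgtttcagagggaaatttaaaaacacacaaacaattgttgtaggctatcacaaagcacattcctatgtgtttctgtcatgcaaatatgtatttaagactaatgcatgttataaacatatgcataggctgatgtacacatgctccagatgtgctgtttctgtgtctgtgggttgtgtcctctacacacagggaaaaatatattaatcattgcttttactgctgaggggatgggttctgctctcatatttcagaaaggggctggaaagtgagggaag
The Col4a1 window held 37 CpG, Col4a2 33, Col8a2 32, Col17a1 5 and Col3a1 0. CG reads the same on both strands, so the count does not depend on strand.

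Reads were counted over each whole gene with 3 kb on either side, so a value covers gene body and promoter together. Total counts were 3331138 and 3567282 in cKO and 2592297 and 2142175 in WT. CPM below are these counts as shares of each library, scaled with TMM factors, and levels of different genes are compared only as CPM per kb of counted window. As shares, they cannot show signal going up or down everywhere at the same rate. Of 18 genes listed as alveolar macrophage markers, 11 passed the count filter. Their median level was 0.213 ± 0.0969 CPM per kb in cKO and 0.159 ± 0.0178 in WT (SD, n = 2 each), and all 11 lay below the median of tested genes in WT. Fibroblast genes stood at 4.22 ± 0.107 and 3.37 ± 0.345, epithelial genes at 3.57 ± 0.369 and 2.69 ± 0.0882, endothelial genes at 1.48 ± 0.102 and 1.32 ± 0.101, T and NK genes at 1.06 ± 0.0161 and 0.767 ± 0.0366, B cell genes at 1.81 ± 0.334 and 1.64 ± 0.392, and granulocyte genes at 1.31 ± 0.0728 and 1.43 ± 0.177 CPM per kb, cKO first and WT second in each pair. The part of other cells in the values below was not tested.

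Most collagen and laminin genes carried more H3K27me3 than the typical gene, in both genotypes. The median level of the 54 tested members was 1.34 ± 0.0472 CPM per kb in cKO and 1.36 ± 0.0471 in WT, against 0.684 ± 0.0240 in cKO and 0.665 ± 0.0197 in WT over all 16752 tested genes (SD of the library medians, n = 2 each). In WT, 43 of the 54 (79.6%) lay above the median of all tested genes and 22 (40.7%) in the top 25%, but only 4 (7.41%) in the top 10%. The remaining member, Col10a1, the network collagen of growth plate cartilage, was at 0 counts in all 4 libraries. Its whole window lies inside that of Nt5dc1, and stretches shared by several windows mostly went uncounted, so this 0 is no measurement of the mark. Levels spanned 36.2-fold in WT from the highest member to the lowest.

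**Figure D1:**
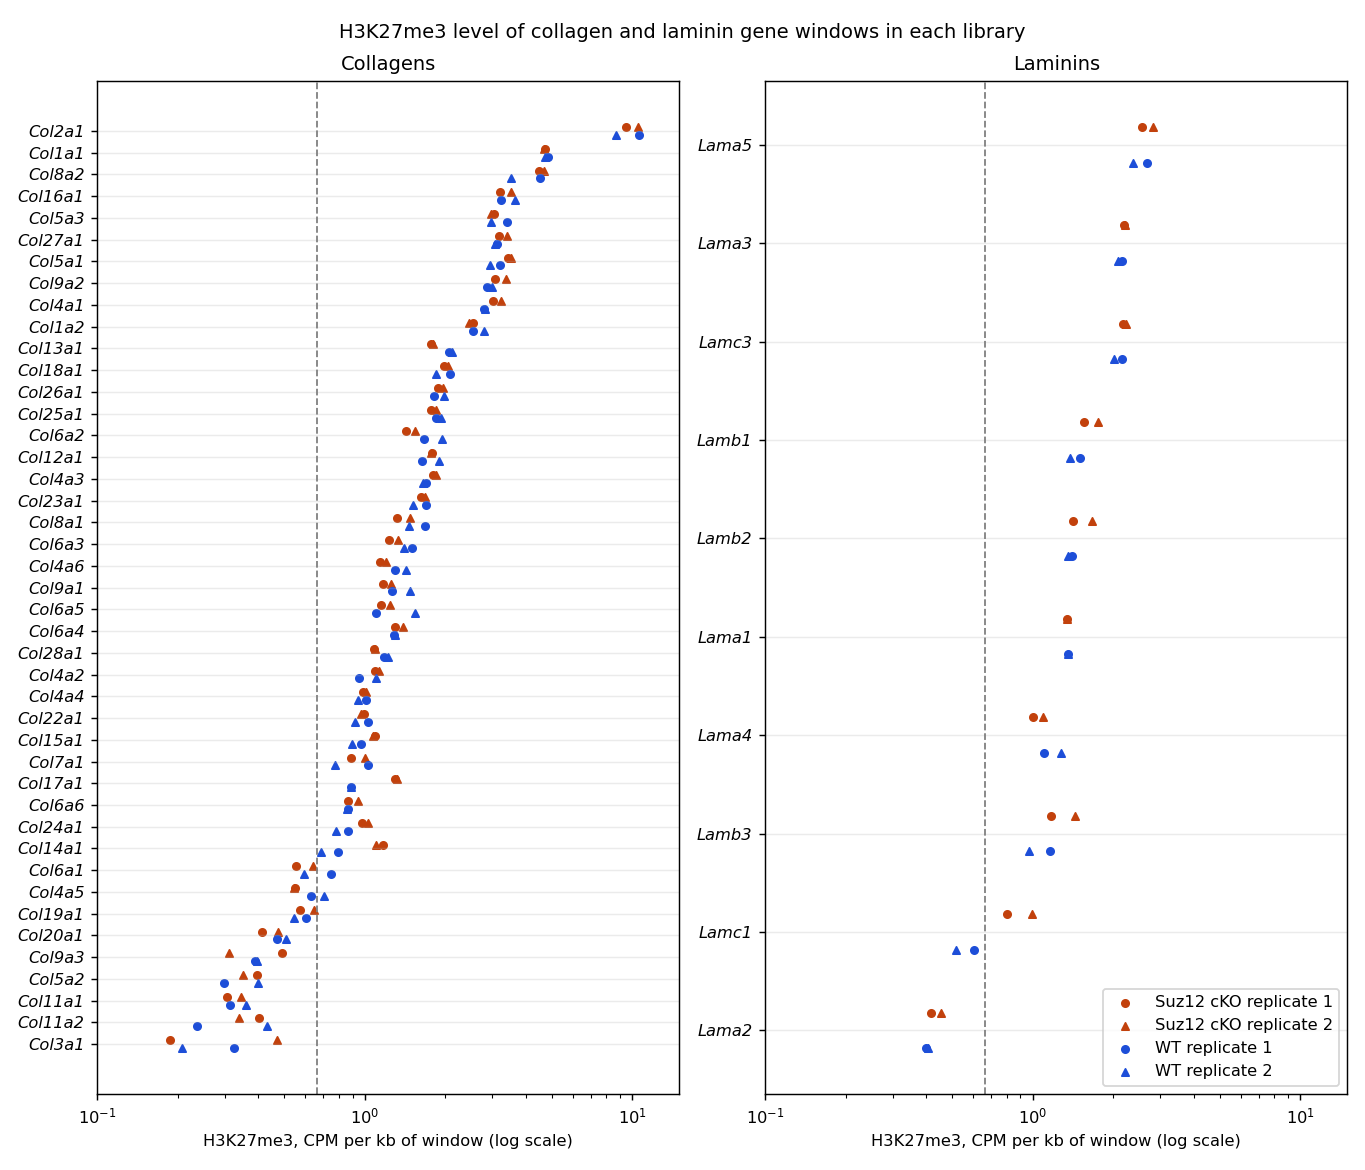
H3K27me3 level (CPM per kb of window, log axis) of tested members in each library, collagens on the left and laminins on the right, ordered by WT mean. Points above each line are cKO replicates and points below it WT replicates, and the dashed line is the WT median of all tested genes, 0.665. Most members sit to the right of the dashed line and the genotypes lie close together in most rows, with Col14a1, Col17a1 and Lamc1 shifted to the right in cKO.

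The fibrillar collagens held both ends of the range. Col2a1, the fibrillar collagen of cartilage, had the highest level, 331 and 369 CPM in cKO and 372 and 304 in WT, or per kb 9.97 ± 0.747 in cKO and 9.63 ± 1.36 in WT. Col1a1, the main chain of type I collagen in bone, skin and scar, followed with 4.71 and 4.67 in cKO and 4.83 and 4.73 in WT. Its partner chain Col1a2 stood lower, at 2.53 and 2.45 in cKO and 2.54 and 2.80 in WT. For Col2a1 the genotypes overlap, while for both type I genes the cKO values lie slightly below the WT values, which was not called (adjusted p = 0.942 for Col1a1 and 0.737 for Col1a2, edgeR's quasi-likelihood test with Benjamini-Hochberg adjustment) and turned with housekeeping scaling (log2 fold changes of 0.30 for Col1a1 and 0.23 for Col1a2). Col3a1, the type III chain that mixes with type I in soft tissues, was the lowest member in WT, at 0.187 and 0.469 CPM per kb in cKO and 0.325 and 0.207 in WT. It rested on 27 and 71 counts in cKO and 37 and 20 in WT, and the WT values lie between the cKO values. Col5a1, which nucleates type I fibrils, had 3.42 and 3.53 in cKO and 3.21 and 2.95 in WT, whereas Col5a2, its partner and the neighbour of Col3a1, had 0.397 and 0.351 in cKO and 0.299 and 0.400 in WT. Col11a1 and Col11a2, the type XI chains of cartilage, were also low. Col11a1 had 0.325 ± 0.0272 in cKO and 0.338 ± 0.0320 in WT, and Col11a2, with 16.2% of its window overlapped, 0.370 ± 0.0442 in cKO and 0.335 ± 0.139 in WT. Among these pairs of partner chains, Col1a1 stood above Col1a2 and Col5a1 above Col5a2 in all 4 libraries.

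Other collagens lay between these. Col8a2, a short-chain network collagen of the corneal endothelium, had 4.49 and 4.67 CPM per kb in cKO and 4.50 and 3.52 in WT, with 11.9% of its window overlapped. Col16a1, which belongs to the FACIT group that decorates fibrils, had 3.20 and 3.51 in cKO and 3.22 and 3.65 in WT, while Col9a3, a FACIT chain of cartilage, had 0.490 and 0.312 in cKO and 0.388 and 0.397 in WT, with 33.1% of its window overlapped by other windows. The 6 type VI genes, which build beaded filaments around cells, ran from 0.596 to 1.49 in cKO and 0.671 to 1.80 in WT. The transmembrane collagens ran from 1.31 to 1.81 in cKO and 0.885 to 2.10 in WT. Among laminins, Lama5, the alpha chain of most adult basement membranes, had 2.56 and 2.81 in cKO and 2.68 and 2.37 in WT with 10.6% of its window overlapped, and Lama3, the alpha chain of epithelial laminin-332, had 2.20 and 2.21 in cKO and 2.16 and 2.09 in WT. Lama1, the early embryonic alpha chain, stood at 1.34 in both cKO libraries and 1.35 in both WT libraries. Lama4, of vessel walls, had 1.00 and 1.09 in cKO and 1.10 and 1.28 in WT, and Lama2, of muscle, had the lowest laminin level, 0.417 and 0.453 in cKO and 0.399 and 0.407 in WT, over a window of 641.658 kb. Of the 5 alpha chains, with TMM factors, cKO lay above WT without overlap at Lama2 and Lama3, and below it at Lama1 and Lama4. Over all tested genes, 23.8% lay above and 23.8% below in this way. At Lama1 the log2 fold change was only -0.0096, so its order carries no direction. The fold change of Lama1 turned positive with housekeeping scaling (0.32), with no filter on low counts (0.0093) and by DESeq2 (0.0092), that of Lama3 turned negative with library totals (-0.00038) and upper-quartile factors (-0.03), and that of Lama4 turned positive with housekeeping scaling (0.15). None of the 5 was called by edgeR (0 at an unadjusted p below 0.05, 0 by DESeq2). Over all tested genes edgeR called 4.46% gained and 1.96% lost, with 10.3% up and 8.26% down at an unadjusted p below 0.05. DESeq2 called 3.3% gained and 0.461% lost of the genes to which it gave an adjusted p.

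Members with more promoter CpG tended to have higher levels. Over the 39 tested members with a promoter sequence, Spearman's rho between CpG number and CPM per kb was 0.579 in cKO and 0.564 in WT. Over all 12259 tested genes with a sequence it was -0.249 in cKO and -0.247 in WT. The 10 members with at least 20 CpG stood at a median of 2.84 CPM per kb in cKO and 2.67 in WT, and the 12 with at most 5 had 1.19 in cKO and 1.13 in WT. In WT the highest of these 12 was at 1.45 and the lowest of the 10, Col4a2, at 1.03. Members were not unusually rich in CpG: the median was 12, as over all tested genes, and 25.6% of members held at least 20 against 35.2% of all. These are descriptions across genes that share libraries, and the level per kb in WT also had a rho of -0.192 with window length over the 54 members. The tested members without a sequence include Col2a1 and Col1a1, the highest of all. Levels are averages over whole gene windows, and the Col4a1 and Col4a2 promoters lie in a shared stretch that mostly went uncounted. The rho therefore does not relate promoter CpG to the mark at the promoter itself.

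**Figure D2:**
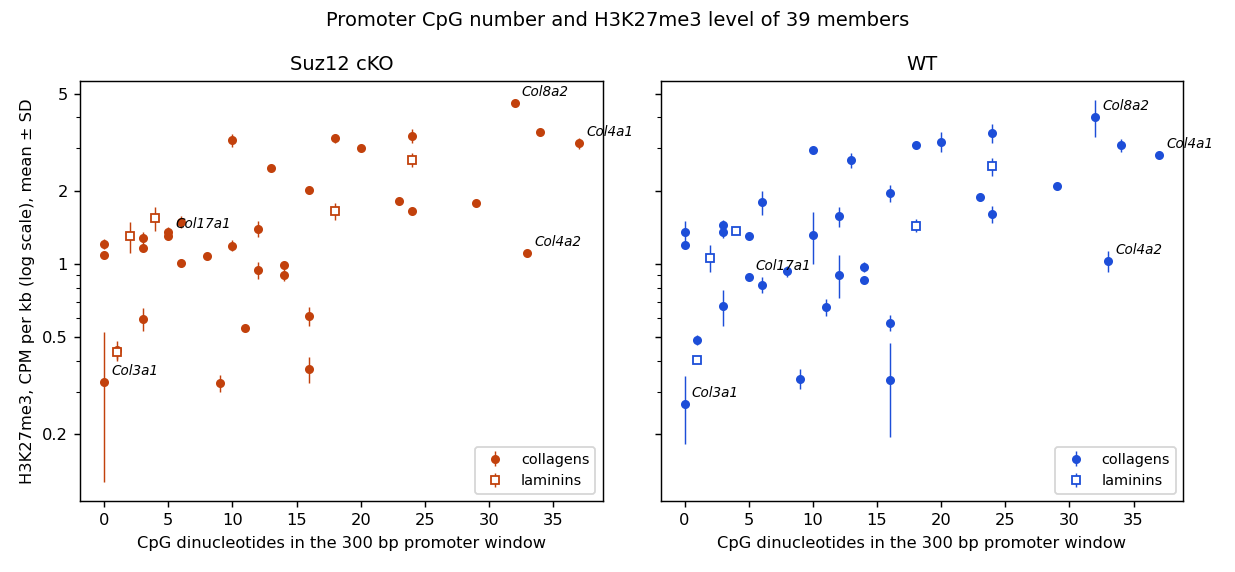
CpG number of the 300 bp promoter window against H3K27me3 level (CPM per kb, log axis, mean ± SD of 2 libraries) for 39 members, in cKO on the left and WT on the right; filled circles are collagens and open squares laminins. Levels cover whole gene windows. Members with at least 20 CpG have a median of 2.84 in cKO and 2.67 in WT. Col4a2 lies below Col4a1, and the stretch where their promoters overlap mostly went uncounted.

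Few members differed between genotypes. Of 54 tested, 3 gained H3K27me3 in cKO (5.56%) and 0 lost it, beside 4.46% gained and 1.96% lost over all tested genes (6.42% in either direction), so the members' share of gains is near the background. Calls are an adjusted p below 0.05 by edgeR's quasi-likelihood test with Benjamini-Hochberg adjustment over all 16752 genes. At an unadjusted p below 0.05 there were 5 members up and 3 down, beside 10.3% up and 8.26% down over all tested genes. DESeq2 called 2 members gained and 0 lost, beside 3.3% gained and 0.461% lost of the 9753 genes to which it gave an adjusted p. Both cKO values lay above both WT values at 17 members (31.5%) and below them at 11 (20.4%), beside 23.8% and 23.8% of all tested genes. The median log2 fold change of the members was 0.04, against -0.01 over all tested genes, and 51 of 54 lay within 0.5 of 0. Which way the small changes pointed depended on scaling: a positive fold change was found at 35 members with TMM factors, at 24 with plain library totals, at 20 when scaled by upper quartiles and at all 54 when scaled to housekeeping genes. These scalings moved the median of all tested genes to -0.07, -0.10 and 0.31 in that order, and the members' median to -0.01, -0.04 and 0.38. A refit on genes with a mean of at least 50 counts also recomputed the TMM factors, so its scale differs too (Lamc1 at 0.62 against 0.68). In it the median was -0.006 for the 49 members kept and -0.003 for all 7808 genes kept. Standard errors of the log2 fold changes had a median of 0.112 for members and 0.289 for all tested genes, the members having long windows (median 120 kb against 29.1 kb) and more counts.

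**Figure D3:**
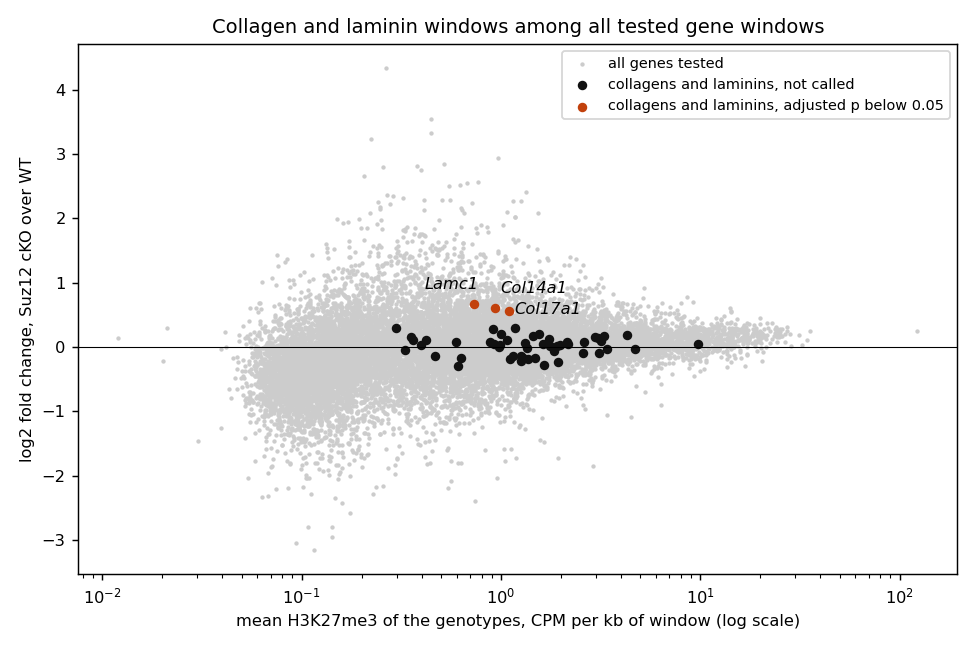
Log2 fold change (cKO over WT) against mean H3K27me3 (CPM per kb, log axis) for all 16752 tested genes in grey and tested members in black or, where called, orange. The members lie in the middle and upper part of the range of levels, and the 3 called ones stand 0.56 to 0.68 above 0.

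Lamc1 encodes the gamma chain shared by most laminin trimers, and its gene (chromosome 1, 153218922 to 153332786 in mm10) had the largest gain among the members. Its window held 315 and 408 counts in cKO and 187 and 135 in WT, or 96.3 and 119 CPM in cKO and 72.5 and 61.8 in WT. The lowest cKO value exceeds the highest WT value. The log2 fold change was 0.68 ± 0.13 (SE, 1.60-fold, adjusted p = 4.59e-05), and no other window overlaps it. Per kb, Lamc1 stood at percentile 57.5 of all tested genes in cKO and 45.3 in WT. Without cKO replicate 2, the higher of the pair, the change was 0.52 and no longer called (adjusted p = 0.132). Of 6 tested genes within 200 kb of Lamc1, 0 were called by edgeR, with log2 fold changes from -0.64 to 0.16. Lamc3, another gamma chain, had 144 ± 3.14 CPM in cKO and 136 ± 5.74 in WT.

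Col14a1 encodes a FACIT collagen of tendon and skin that binds fibril surfaces (chromosome 15, 55307644 to 55520803). It held 836 and 826 counts in cKO and 447 and 329 in WT, or 256 and 241 CPM in cKO and 173 and 151 in WT, again without overlap of the genotypes. The log2 fold change was 0.61 ± 0.10 (1.53-fold, adjusted p = 1.2e-06), called without each library in turn. With scaling to housekeeping genes it was 0.94 but not called (adjusted p = 0.0517), a fit in which the scale of each library rests on 210 to 274 counts. Its window overlaps no other, and the 3 tested genes within 200 kb had log2 fold changes from -0.19 to 0.19. Col12a1, a related FACIT collagen of the same tissues, had 223 ± 1.10 CPM in cKO and 221 ± 22.9 in WT.

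Col17a1 encodes a transmembrane collagen that anchors epithelial cells to their basement membrane (chromosome 19, 47646341 to 47692042). It held 220 and 233 counts in cKO and 118 and 100 in WT, or 67.3 and 68.0 CPM in cKO and 45.8 in each WT library. The replicates lie close together and the genotypes stand apart, with a log2 fold change of 0.56 ± 0.16 (1.48-fold, adjusted p = 0.0094). The fold change was 0.56 or more in the following fits, but the call was lost without cKO replicate 1 (adjusted p = 0.0927), cKO replicate 2 (0.152) and WT replicate 1 (0.0585), with housekeeping scaling (0.0636) and by DESeq2 (0.167). The window of Slk overlaps 9.49% of that of Col17a1. The 5 other tested genes within 200 kb had log2 fold changes from 0.01, at Slk itself, to 0.49. Of these 1 was called, Sh3pxd2a, which gained by 0.49 (adjusted p = 3.68e-05 by edgeR). Gsto2 was at 0.45 (adjusted p = 0.0873) and Stn1 at 0.28 (adjusted p = 0.856). Lamb3, the beta chain of laminin-332 in the same epithelial anchoring complex, had 56.0 and 68.9 CPM in cKO and 55.5 and 46.2 in WT (log2 fold change 0.29 ± 0.15, adjusted p = 0.302).

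**Figure D4:**
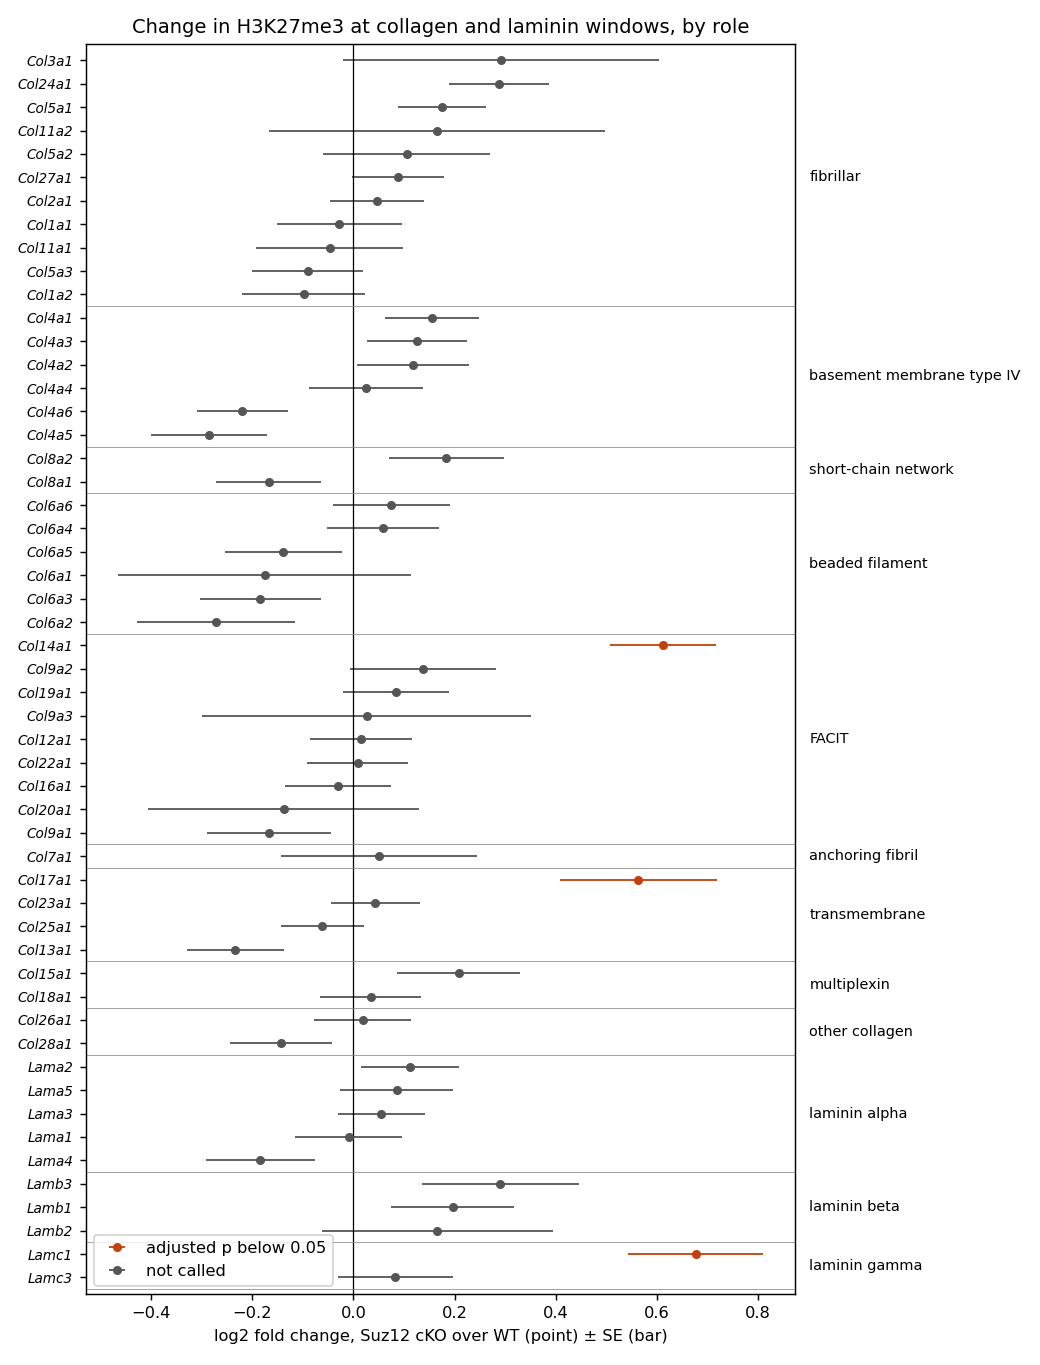
Log2 fold change (cKO over WT, points) with its SE (bars) for tested members, grouped by role; orange marks an adjusted p below 0.05. Only Col14a1, Col17a1 and Lamc1 are called, at 0.56 to 0.68, and all other points shown lie between -0.29 and 0.29.

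The 6 type IV collagen genes lie in 3 neighbouring pairs. With TMM factors over all 16752 tested genes, the genes of each pair had fold changes of the same sign. That of Col4a4 turned negative with library totals (-0.03), upper-quartile factors (-0.06) and a minimum mean of 50 counts (-0.03). Col4a1 had 363 and 390 CPM in cKO and 337 and 339 in WT (log2 fold change 0.16 ± 0.09, adjusted p = 0.376), and Col4a2 155 and 162 in cKO and 136 and 157 in WT (0.12 ± 0.11, adjusted p = 0.635). Col4a3 had 255 and 261 CPM in cKO and 239 and 233 in WT (0.13 ± 0.10, adjusted p = 0.543). Col4a4, one of its partner chains in kidney and lung basement membranes, had 140 and 143 in cKO and 143 and 134 in WT (0.03 ± 0.11, adjusted p = 0.943). The X-linked pair went the other way: Col4a5 had 120 CPM in each cKO library and 138 and 155 in WT (-0.29 ± 0.11, adjusted p = 0.124), and Col4a6, of smooth muscle and epithelial basement membranes, 357 and 376 in cKO and 410 and 446 in WT (-0.22 ± 0.09, adjusted p = 0.142). Both cKO values lay below both WT values for each X-linked gene, as at 23.8% of all tested genes. None of the 6 was called by DESeq2, or by edgeR with TMM factors over all 16752 tested genes. In that edgeR fit 2 had an unadjusted p below 0.05, Col4a5 and Col4a6. Over all genes, edgeR called 4.46% gained and 1.96% lost, and DESeq2 3.3% and 0.461% of those with an adjusted p. At an unadjusted p below 0.05 by edgeR, 10.3% were up and 8.26% down. With library totals alone, upper-quartile factors or a minimum mean of 50 counts, Col4a5 and Col4a6 were called as lost, as was Col13a1, a transmembrane collagen of the neuromuscular junction (259 and 263 CPM in cKO, 303 and 311 in WT, -0.23 ± 0.10, adjusted p = 0.139 with TMM factors). With housekeeping scaling Col4a5 and Col4a6 were at 0.04 and 0.11. The X chromosome as a whole held 5.35% and 5.43% of counts in cKO and 5.27% and 5.50% in WT, and its 946 tested genes had a median log2 fold change of 0.065.

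Levels differed within each pair. Per kb, Col4a1 stood above Col4a2 by 2.78 and 2.86 times in cKO and 2.94 and 2.56 times in WT. Col4a4 stood at 0.545 of Col4a3 in both cKO libraries and at 0.596 and 0.572 in WT, and Col4a6 above Col4a5 by 2.08 and 2.19 times in cKO and 2.07 and 2.00 times in WT. The order within each pair was the same in all 4 libraries. The cKO and WT ratios overlap for Col4a1 and Col4a2 and lie just apart for the other pairs, where 2 libraries against 2 allow no exact permutation p below 0.333. Part of each window is shared with the partner, and reads there were mostly not counted: 6085 bp of the Col4a1 and Col4a2 windows overlap, 6114 bp of those of Col4a3 and Col4a4, and 4726 bp of those of Col4a5 and Col4a6, so for Col4a1 and Col4a2 the overlapping promoters shown above lie in the shared stretch, and their levels describe mainly the gene bodies. Col9a1 and Col19a1, a pair of FACIT genes that meet at their ends, share 1056 bp. Col9a1 had 95.1 and 101 CPM in cKO and 102 and 119 in WT (-0.17 ± 0.12, adjusted p = 0.512), and Col19a1 192 and 218 in cKO and 203 and 183 in WT (0.08 ± 0.10, adjusted p = 0.737).

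**Figure D5:**
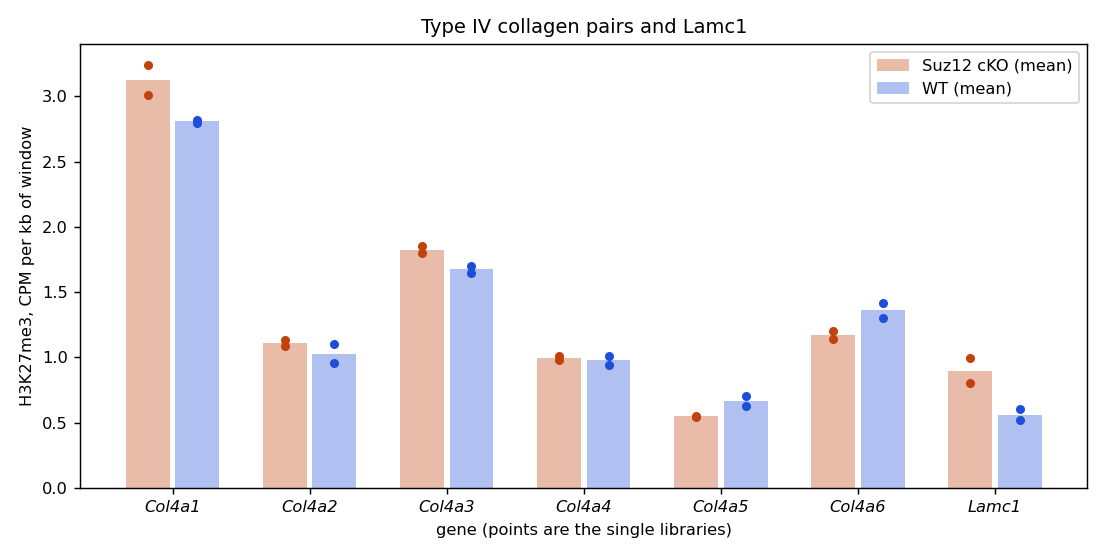
H3K27me3 (CPM per kb of window) of the type IV collagen genes and of Lamc1; bars are means of 2 libraries, points single libraries, cKO left of WT for each gene. The order within each type IV pair is the same in both genotypes. Of these genes only Lamc1, at 0.804 and 0.994 in cKO and 0.605 and 0.516 in WT, was called with TMM factors over all 16752 tested genes.

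By role, none of the 11 fibrillar, 6 type VI and 3 laminin beta genes was called by edgeR or by DESeq2. Over all genes, edgeR called 4.46% gained and 1.96% lost, and DESeq2 3.3% and 0.461% of those with an adjusted p. Groups this small would hold few calls at these shares. At an unadjusted p below 0.05 by edgeR there were 2, 0 and 0, beside 10.3% up and 8.26% down over all tested genes. The 2 are Col24a1, a fibrillar collagen of developing bone, with 260 and 275 CPM in cKO and 231 and 207 in WT (0.29 ± 0.10, adjusted p = 0.0591), and Col5a1 (0.17 ± 0.09, adjusted p = 0.259). Col24a1 was called without WT replicate 1. With TMM factors 4 of the 6 type VI genes had negative fold changes (median -0.16), whereas all were positive with housekeeping scaling, and the 3 laminin beta genes had a median of 0.20. Restricted to the 25 members whose windows overlap no other, 2 gained and 0 lost, beside 4.46% gained and 1.96% lost over all tested genes, and their median log2 fold change was -0.01, as over all tested genes.

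Genes whose products process, bind or receive collagens and laminins included larger gains than any member, at Nid2 and Sparc. Of 56 listed, 52 were tested, 3 gained (5.77%) and 2 lost, beside 4.46% gained and 1.96% lost over all tested genes, so the share of gains is near the background. In either direction 9.62% of the tested partners were called, beside 6.42% of all tested genes. The median log2 fold change over the list was 0.06, against -0.01 over all tested genes. The remaining gain was at Bcam. Nid2 encodes a nidogen, which links laminin gamma chains to type IV collagen, and had 328 and 308 counts in cKO and 84 and 77 in WT, or 95.1 ± 7.31 CPM in cKO and 33.9 ± 1.90 in WT (SD, n = 2 each; edgeR log2 fold change 1.49 ± 0.16, adjusted p = 1.45e-16), with 9.6% of its window overlapped. Sparc, a collagen-binding matricellular protein, had 31.5 and 29.5 in cKO and 12.0 and 8.70 in WT (1.54 ± 0.26, adjusted p = 1.34e-06). Both were called under each of the 12 alternatives, and at both the genotypes do not overlap. Bcam, a receptor for laminin alpha 5, had 48.3 and 40.3 in cKO and 30.2 and 26.1 in WT (0.64 ± 0.19, adjusted p = 0.0196), and was not called with upper-quartile factors (0.0699), with housekeeping scaling (0.0524), by DESeq2 (0.259), without cKO replicate 1 (0.294) or without WT replicate 2 (0.175).

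Adamts2 and Loxl1 were the partners called as lost. Adamts2, which trims the amino end of fibrillar procollagens, had 193 and 202 CPM in cKO and 262 and 239 in WT (-0.34 ± 0.10, adjusted p = 0.0172). Loxl1, which cross-links elastin and collagen, had 166 and 162 in cKO and 215 and 200 in WT (-0.34 ± 0.11, adjusted p = 0.0251). The genotypes do not overlap at either gene, but neither was called by DESeq2 (adjusted p = 0.169 and 0.222), nor with housekeeping scaling, where the changes were -0.01 and -0.02. Without cKO replicate 1, cKO replicate 2 or WT replicate 1 neither was called (adjusted p from 0.166 to 0.398), and Loxl1 was not called with no filter on low counts (0.0531). Dag1, which encodes the laminin receptor dystroglycan, had 7.34 and 2.34 CPM in cKO and 6.98 and 14.7 in WT (-1.14 ± 0.43, adjusted p = 0.09), with overlapping genotypes. Dag1 rested on only 24 and 8 counts in cKO and 18 and 32 in WT. Its mean level was 0.0758 CPM per kb in cKO and 0.17 in WT, far below the medians of all tested genes (0.684 and 0.665). Dag1 thus had a low level in both genotypes. Its log2 fold change was -2.16 without cKO replicate 1 and -1.60 without WT replicate 1. Without cKO replicate 2 it was -0.53, as it was without WT replicate 2, so its size hung on single libraries.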

How the data were processed

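The authors deposited whole-number counts of Cut&Tag reads per gene window, with the window length, for 4 libraries. Counting was by featureCounts on mm10, per the submitters' processing notes. For the aligner, duplicates and counting options the sources used here give nothing. The members and lists were chosen with earlier results of these data known. Entrez IDs were matched to symbols and positions of the GRCm38.p6 RefSeq table (25204 IDs, 93.0%). Window lengths matched the gene with 3000 bp on each side, exactly for 13 of 55 members and within 1% for 45, so overlaps are approximate for the rest. Of 2443 windows lying inside others, 67.1% were at 0 throughout, against 1.3% of 10809 windows free of overlap; 30 members have some overlap.

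Genotypes were compared with edgeR 4.0.16 under R 4.3.3 (filterByExpr, TMM, glmQLFit, glmQLFTest, genotype as the only term), which kept 16752 genes; SE is the size of the log2 fold change divided by the square root of F. DESeq2 1.42.0 was an alternative, as were other scalings, filters, a replicate block and leaving out each library. On simulated counts for this comparison (16048 genes run), 26% of 1.5-fold, 46% of 2-fold, 82% of 3-fold and 86% of 4-fold changes were called, and 4 of 124 calls were unchanged genes. The changed genes were drawn at random from all tested genes, whose median SE was 0.289 against 0.112 for the members. These percentages therefore do not describe the members. The replicates are biological per the labels, and p-values measure the spread between these libraries only. Replicates differed by more than sampling noise (chi-square per degree of freedom 1.79 in cKO and 1.94 in WT).

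Described in full are the called members, members whose windows overlap that of another member, the Col4, Lama, Col1 and Col3a1 genes, the 5 highest and 5 lowest tested members by mean CPM per kb, and the 3 matrix partners of lowest p in each direction; others are named where a sentence needs them, after their values were seen. 1 tested member is not reported here on its own and is not drawn, but is kept in counts and medians.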

Additional observations from a re-analysis of the deposited data

How the results depend on the processing

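The count of members gained (3) was 1 with housekeeping scaling and 1 to 3 when 1 library was left out, and the count lost (0) was 3 with library totals, 3 with upper-quartile factors and 3 with a minimum mean of 50 counts; the cause was not tested. Partner genes lost (2) came to 0 with housekeeping scaling, 1 with no filter, 0 by DESeq2 and 0 to 2 with 1 library left out. Over all genes, 747 gained and 329 lost, against 494 and 519 with upper-quartile factors, 495 and 19 with housekeeping scaling, 322 and 45 by DESeq2, and 350 to 738 and 76 to 207 with 1 library left out. Gains were 69.4% of calls, but 55.7% with library totals, 48.8% with upper-quartile factors, 96.3% with housekeeping scaling and 87.7% by DESeq2. Per kb of unshared window the members' median was 1.40 CPM in cKO and 1.44 in WT. The same replicate numbers across genotypes are not said to pair libraries, and same-numbered deviations had a correlation of 0.00844; with the replicate block 3 members gained and 0 lost, and over all genes 733 gained and 306 lost.

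For single named genes, 325 of 392 settings kept direction and call, 23 lost a call, 8 gained one and 36 turned direction, none of these 36 at a gene called in the comparison reported. With housekeeping scaling, log2 fold changes turned to 0.29 for Col11a1, 0.31 for Col16a1, 0.30 for Col1a1, 0.23 for Col1a2, 0.04 for Col4a5, 0.11 for Col4a6, 0.16 for Col9a1, 0.32 for Lama1 and 0.15 for Lama4. With upper-quartile factors they turned to -0.0011 for Col19a1, -0.04 for Col2a1, -0.06 for Col4a4, -0.06 for Col9a3 and -0.03 for Lama3. With library totals they turned to -0.0084 for Col2a1, -0.03 for Col4a4, -0.03 for Col9a3 and -0.00038 for Lama3, and with a minimum mean of 50 counts to -0.0065 for Col2a1 and -0.03 for Col4a4. Lama1 was at 0.0093 with no filter and 0.0092 by DESeq2. With 1 library left out, the range was -0.14 to 0.06 for Col11a1, -0.22 to 0.65 for Col11a2, -0.11 to 0.07 for Col16a1, -0.0055 to 0.18 for Col19a1, -0.08 to 0.21 for Col2a1, -0.52 to 0.80 for Col3a1, -0.01 to 0.08 for Col4a4, -0.09 to 0.33 for Col5a2, -0.32 to 0.32 for Col9a3 and -0.0099 to 0.0021 for Lama1. Depth limits the low members most: Col3a1 rested on 20 to 71 counts a library.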
